A study of Homo sapiens with 12 samples.

Results

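The proteasome subunit genes were followed across MDA-MB-231, a triple-negative human breast cancer line of mesenchymal character, whose cells carried 1 of 2 short hairpin RNAs and were kept at 1 of 2 oxygen levels. Members were the symbols of the count table that begin with PSMA, PSMB, PSMC, PSMD, PSME or PSMF and end in a number, without PSMB8 and PSMB9. This gave 41 genes of the 24641 symbols in the table, and 39 of these passed the filter on low counts, as did 15648 genes in all. The members comprised 7 genes of the alpha ring, 9 of the beta ring, 6 regulatory ATPases, 11 regulatory non-ATPases, 3 assembly chaperones with PSMD symbols, 4 activators and 1 inhibitor.

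The groups were hypoxic shRIPOR3, hypoxic shControl, normoxic shRIPOR3 and normoxic shControl cells, with 3 libraries each and 12 in all. RIPOR3 knockdown cells carried a hairpin against RIPOR3, control cells carried a control hairpin and are labelled WT, and hypoxia meant 1% O2 for 24 hours. Not given in the sources used here were the oxygen level of normoxia, the hairpin sequences and the number of clones behind each line. The shRIPOR3 libraries all carry the same hairpin label. Loss of RIPOR3, other effects of that hairpin and differences between the lines therefore cannot be told apart, also where the text says knockdown. The labels do not say whether replicates were separate cultures, and p-values therefore reflect only the spread of these libraries, which may be technical. Library totals were 31781324 to 52526813 counts in hypoxia and 14750734 to 30032858 in normoxia, so hypoxic libraries were deeper. RIPOR3 itself had 9, 3 and 11 counts in hypoxic shRIPOR3 libraries against 33, 18 and 30 in hypoxic shControl libraries, and 0, 0 and 1 in normoxic shRIPOR3 libraries against 7, 3 and 7 in normoxic shControl libraries. The mesenchymal markers VIM and MSN averaged 547 and 5099.5 CPM over all libraries, and the oestrogen receptor ESR1 and E-cadherin CDH1 averaged 0.178 and 1.13 CPM. Other markers chosen for the line, CD44, AXL, CAV1 and SPARC as present and PGR, EPCAM and KRT20 as low, are not given here. Among markers of other cell types, the leukocyte genes PTPRC and CD3E, the endothelial gene VWF and the fibroblast gene DCN all averaged under 1 CPM. With PECAM1 (endothelium) and PDGFRB (mural cells) the 6 markers summed to 4.63 to 5.00 CPM in hypoxic shRIPOR3 and 11.8 to 12.6 CPM in hypoxic shControl libraries, and to 2.78 to 3.89 CPM in normoxic shRIPOR3 and 8.19 to 9.63 CPM in normoxic shControl libraries. This sum was lower under knockdown at both oxygen levels, and its part in the results was not tested.

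The proteasome degrades proteins that have been tagged with ubiquitin. Its core particle, called 20S, is a barrel of stacked rings: outer rings of alpha subunits gate the entrance, and inner rings of beta subunits carry the protease sites in PSMB5, PSMB6 and PSMB7. The regulatory particle, called 19S, caps the barrel, and its ATPases unfold substrates while its non-ATPase subunits bind and strip ubiquitin chains. Other caps, the PSME activators, open the core without ubiquitin recognition, and cells under proteasome stress raise most subunit genes together through the transcription factor NFE2L1.

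Most proteasome subunit mRNAs were lower in hypoxia, and in hypoxia most were higher in shRIPOR3 than in shControl cells. Hypoxia lowered 35 of the 39 tested members and raised 0 in shRIPOR3 cells, at a median log2 fold change of -0.37, where 55.6% of all tested genes were called, 30.4% as lower, around a median of -0.01. In shControl cells it lowered 36 and raised 0, at a median of -0.53, where 64.8% of tested genes were called, 32.4% as lower, around a median of 0.02. A gene was called at an adjusted p below 0.05 in edgeR's quasi-likelihood test, with Benjamini-Hochberg adjustment over all tested genes.

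Knockdown, meaning shRIPOR3 over shControl, left 27 members higher and 4 lower in hypoxia, at a median log2 fold change of 0.26, where 61.9% of tested genes were called, 30.7% as higher and 31.2% as lower, around a median of -0.0029. In normoxia 21 members were higher and 7 lower, at a median of 0.13, where 45.7% of tested genes were called, 25.1% as higher and 20.6% as lower, around a median of 0.03. The interaction is the hypoxic change in shRIPOR3 cells minus that in shControl cells. It was positive in 21 members and negative in 0, at a median of 0.18, where 23.2% of tested genes were called, 10.9% as positive and 12.3% as negative, around a median of -0.02. Of the tested members 36 averaged at least 10 CPM, and the 8337 tested genes of that abundance had medians of -0.09 for hypoxia in shRIPOR3 cells, -0.11 in shControl cells, 0.04 for knockdown at each oxygen level and 0.01 for the interaction. Of these 8337 genes, hypoxia lowered 3871 and raised 2383 in shRIPOR3 cells, and lowered 4075 and raised 2665 in shControl cells. Knockdown left 3468 higher and 2784 lower in hypoxia, and 2903 higher and 2222 lower in normoxia. The interaction was positive in 1536 and negative in 1413. The share called under knockdown in hypoxia was 79.5% of members and 74.99% of these genes, and for the interaction 53.8% and 35.4%.

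The members together held 1.04% ± 0.0075 of all counts in hypoxic shRIPOR3 libraries and 0.930% ± 0.0049 in hypoxic shControl libraries, against 1.20% ± 0.014 in normoxic shRIPOR3 and 1.19% ± 0.0076 in normoxic shControl libraries (SD, n = 3 each). Both hypoxic groups lay below both normoxic groups, and the hypoxic shRIPOR3 group lay above the hypoxic shControl group. PSMD2 alone supplied 22.01% to 28.6% of these counts. All levels are relative to the RNA sequenced, and in bulk RNA fewer cells with a transcript and less of it per cell cannot be told apart.

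**Figure D1:**
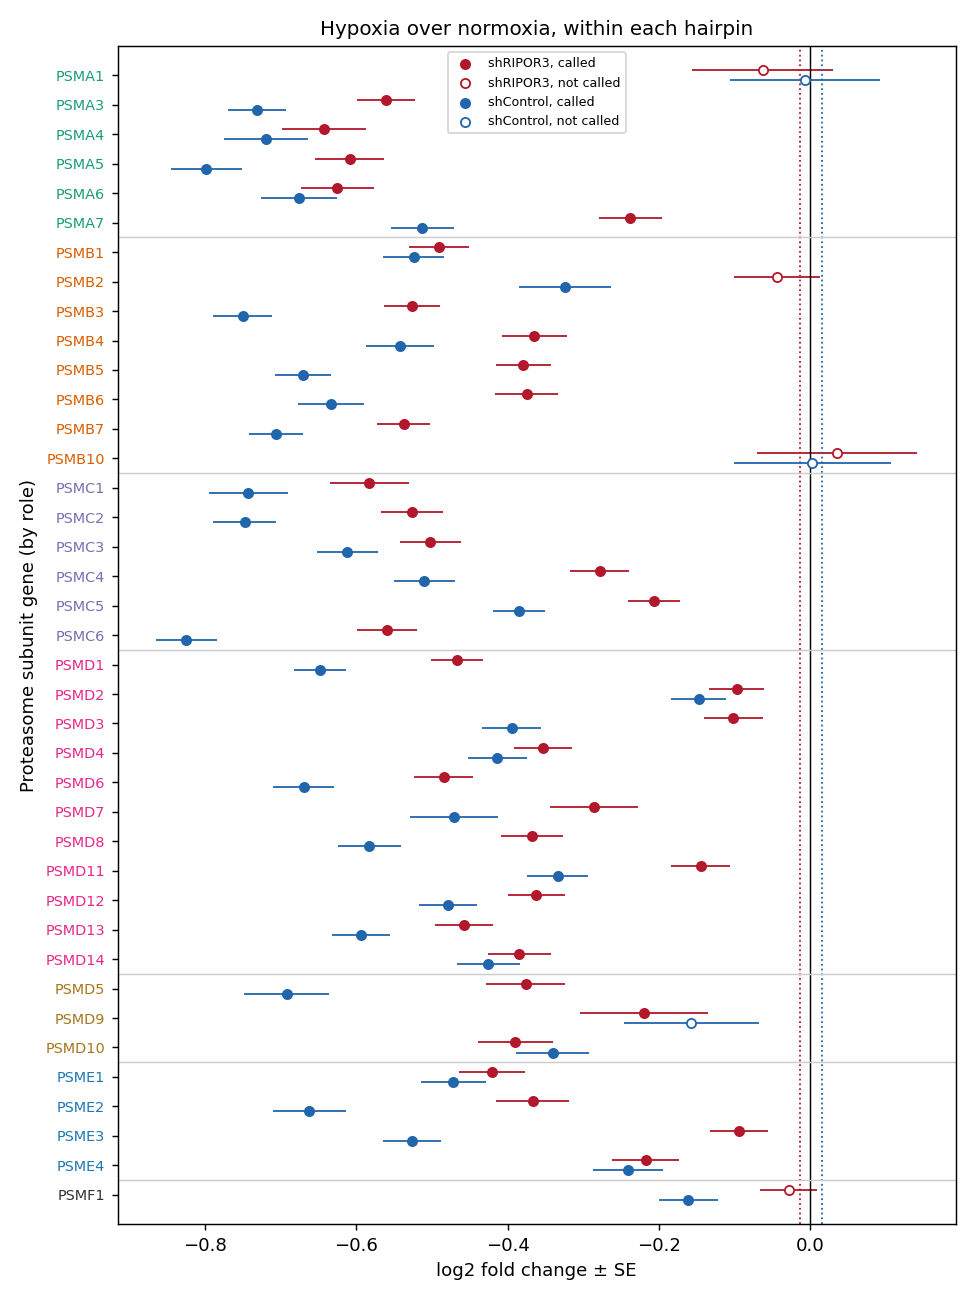
Log2 fold change of hypoxia over normoxia (x axis, ± SE) for the 39 tested members, ordered by role, in shRIPOR3 cells (red, upper point of each pair) and shControl cells (blue, lower point). Filled points passed an adjusted p of 0.05, and the dotted lines are the medians of all tested genes, -0.01 and 0.02. Most points lie between -0.8 and -0.1, and the blue point lies left of the red one for most members.

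Levels differed widely between members. Per length of the principal transcript, averaged over all libraries, PSMC3 stood at 852 CPM per kb, PSMD2 at 787, PSMA7 at 619 and PSME3 at 384 CPM per kb. Counts may also come from exons outside that transcript, so the order depends in part on the transcript chosen. For PSME3 it has 998 bases, against 5152 bases of annotated exon. The weakest tested members on the same scale were PSMD9 at 2.89, PSMA1 at 3.69 and PSMB10 at 3.77 CPM per kb. PSMA1, PSMD9 and PSMB10 each share exons on the same strand with another annotated gene (GENCODE 29), over 53.2%, 43.8% and 45.3% of the principal transcript, and reads in such stretches could have been dropped or split in counting. PSMA2, an alpha subunit with 52.5% of its transcript shared in this way, had 2 to 13 counts per library and was not tested. PSMB11, the beta subunit of the thymus, had 0 to 2 counts per library and was not tested either.

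**Figure D2:**
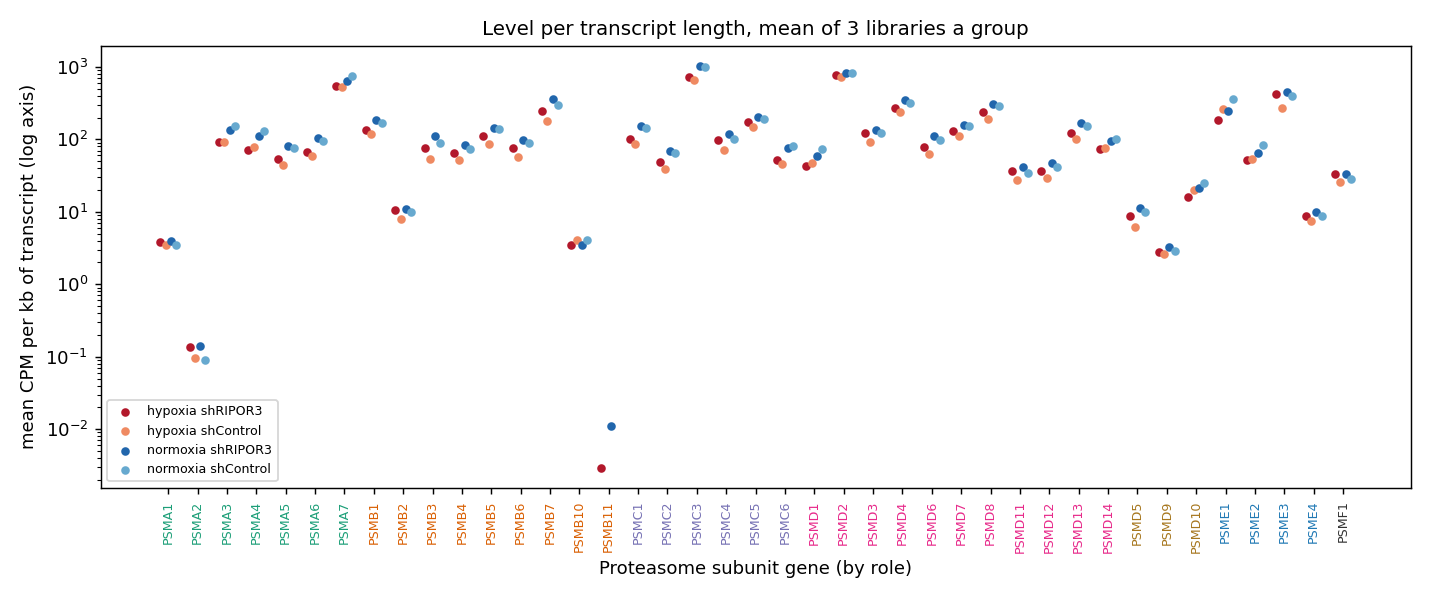
Level of each of the 41 members in CPM per kb of the principal transcript (y axis, log scale), as the mean of 3 libraries in each of the 4 groups (colours), ordered by role. Groups at 0 are not drawn, as in PSMB11. Levels of tested members span from about 3 CPM per kb for PSMD9 to 852 CPM per kb for PSMC3, and differences between groups are small beside those between genes.

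In the alpha ring, which forms the gate of the core, 5 of 6 tested genes fell in hypoxia in each line. The median log2 fold change was -0.58 in shRIPOR3 and -0.70 in shControl cells, and the gene that did not pass in either line was PSMA1. Under knockdown 2 genes were higher and 1 lower in hypoxia, and 2, PSMA5 and PSMA6, were higher and 3 lower in normoxia. Without normoxic shControl replicate 3 neither PSMA5 nor PSMA6 passed in normoxia (edgeR adjusted p = 0.177 and 0.0818), and PSMA6 did not pass without normoxic shControl replicate 1 (edgeR adjusted p = 0.0683). PSMA5, at 0.11 ± 0.046 (SE), lost that call under 16 of 22 alternatives, among them DESeq2, the replicate block, each other scaling and a threshold of 0.01. Other single libraries whose removal ended it were normoxic shControl replicate 2, normoxic shRIPOR3 replicates 2 and 3 and each hypoxic shControl library (edgeR adjusted p from 0.0560 to 0.172). The interaction was positive in 3 of the 6, and in 1 without normoxic shRIPOR3 replicate 1.

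PSMA5, one of the alpha subunits, had 185, 208 and 209 CPM in hypoxic shRIPOR3 libraries and 162, 157 and 169 in hypoxic shControl libraries, against 294, 308 and 314 in normoxic shRIPOR3 libraries and 295, 279 and 274 in normoxic shControl libraries. All hypoxic libraries lay below all normoxic libraries, and the hypoxic shRIPOR3 libraries lay above the hypoxic shControl libraries. Its hypoxic log2 fold change was -0.61 ± 0.046 (SE) in shRIPOR3 cells and -0.80 ± 0.047 in shControl cells, or 0.656 and 0.575 times the normoxic level (edgeR adjusted p = 6.67e-11 and 2.78e-13). The knockdown difference was 0.30 ± 0.046 in hypoxia (edgeR adjusted p = 3.70e-06).

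PSMA4 had 322, 324 and 286 CPM in hypoxic shRIPOR3 libraries and 322, 363 and 365 in hypoxic shControl libraries, against 512, 479 and 466 in normoxic shRIPOR3 libraries and 568, 620.3 and 541 in normoxic shControl libraries. It ran opposite to PSMA5 under knockdown, with shRIPOR3 libraries below shControl libraries in normoxia and groups that overlapped in hypoxia. Hypoxia lowered it by a log2 fold change of -0.64 ± 0.056 (SE) in shRIPOR3 and -0.72 ± 0.056 in shControl cells (edgeR adjusted p = 7.23e-10 and 5.10e-11). Knockdown lowered it by -0.25 ± 0.056 in normoxia (edgeR adjusted p = 7.97e-04). In hypoxia the knockdown value was -0.17 ± 0.056 (edgeR adjusted p = 0.0102), and the call was lost without hypoxic shControl replicate 2, hypoxic shControl replicate 3 or hypoxic shRIPOR3 replicate 3, at -0.13, -0.13 and -0.11 (edgeR adjusted p = 0.0759, 0.0786 and 0.102).

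PSMA6 had 68.5, 64.4 and 73.6 CPM in hypoxic shRIPOR3 libraries and 62.9, 60.003 and 56.7 in hypoxic shControl libraries, against 105, 107 and 107 in normoxic shRIPOR3 libraries and 93.3, 103 and 92.4 in normoxic shControl libraries. Hypoxic and normoxic libraries did not overlap in either line, and the hypoxic log2 fold changes of -0.63 ± 0.048 (SE) in shRIPOR3 and -0.68 ± 0.050 in shControl cells were close together, with an interaction of 0.05 ± 0.069 (edgeR adjusted p = 0.660). Exons of another protein-coding gene cover 81.0% of the PSMA6 transcript on the same strand, and 3 pseudogenes named after PSMA6 held 7.18% as many counts. The level of PSMA6 is therefore uncertain. PSMA1 had 6.04, 5.69 and 5.55 CPM in hypoxic shRIPOR3 libraries and 5.19, 4.94 and 5.64 in hypoxic shControl libraries, against 5.75, 5.72 and 6.44 in normoxic shRIPOR3 libraries and 5.66, 4.70 and 5.28 in normoxic shControl libraries. Its groups overlapped between oxygen levels in both lines, and its log2 fold changes were -0.06 ± 0.093 and -0.01 ± 0.099 (SE, edgeR adjusted p = 0.593 in shRIPOR3 and 0.959 in shControl cells).

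The remaining alpha genes, PSMA3 and PSMA7, fell in hypoxia in both lines, and under knockdown they were called lower in normoxia and not called in hypoxia. Their knockdown log2 fold changes were -0.03 ± 0.037 and 0.05 ± 0.042 in hypoxia and -0.21 ± 0.038 and -0.22 ± 0.042 in normoxia (SE). The interaction tests this difference between oxygen levels, and it was 0.27 ± 0.059 for PSMA7 (edgeR adjusted p = 0.00152) and 0.17 ± 0.054 for PSMA3 (edgeR adjusted p = 0.0227). Without normoxic shRIPOR3 replicate 1 the PSMA3 interaction was 0.15 (edgeR adjusted p = 0.0542).

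In the beta ring 6 of 8 tested genes fell in hypoxia in shRIPOR3 cells and 7 of 8 in shControl cells, at medians of -0.38 and -0.59. Knockdown left 7 of 8 higher in hypoxia and 6 of 8 higher in normoxia, with 0 lower in either except under the alternatives given for PSMB10. The normoxic count was 4 to 6 when single libraries were left out. The interaction was positive in 6 of 8, and in 3 after thinning to the smallest library. The catalytic subunits PSMB5, PSMB6 and PSMB7, which cut after hydrophobic, acidic and basic residues, all belonged to those 6.

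PSMB5, the chymotrypsin-like subunit that bortezomib binds, had 145, 136 and 145 CPM in hypoxic shRIPOR3 libraries and 111, 112 and 113 in hypoxic shControl libraries, against 179.6, 188 and 186 in normoxic shRIPOR3 libraries and 177, 182 and 177 in normoxic shControl libraries. Every hypoxic library lay below every normoxic one, the hypoxic shRIPOR3 libraries all lay above the hypoxic shControl libraries, and the normoxic groups overlapped. The hypoxic log2 fold change was -0.38 ± 0.036 (SE) in shRIPOR3 and -0.67 ± 0.037 in shControl cells, or 0.769 and 0.628 times the normoxic level (edgeR adjusted p = 3.72e-09 and 1.03e-13). The interaction was 0.29 ± 0.052 (edgeR adjusted p = 2.31e-04).

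PSMB6, the caspase-like subunit, had 64.5, 61.4 and 66.4 CPM in hypoxic shRIPOR3 libraries and 48.04, 48.9 and 49.7 in hypoxic shControl libraries, against 87.6, 80.99 and 81.8 in normoxic shRIPOR3 libraries and 77.6, 71.7 and 77.3 in normoxic shControl libraries. No groups overlapped, and from high to low their order was normoxic shRIPOR3, normoxic shControl, hypoxic shRIPOR3 and hypoxic shControl. Its knockdown log2 fold change was 0.39 ± 0.042 (SE) in hypoxia and 0.14 ± 0.044 in normoxia (edgeR adjusted p = 1.66e-08 and 0.0142), with an interaction of 0.26 ± 0.061 (edgeR adjusted p = 0.00312). The normoxic knockdown call was lost without normoxic shControl replicate 2, normoxic shRIPOR3 replicate 1 or hypoxic shControl replicate 2, at 0.10, 0.10 and 0.11 (edgeR adjusted p = 0.0693, 0.0763 and 0.0516).

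PSMB7, the trypsin-like subunit, had 239.8, 235 and 243 CPM in hypoxic shRIPOR3 libraries and 175, 180.01 and 180.04 in hypoxic shControl libraries, against 357, 349 and 337 in normoxic shRIPOR3 libraries and 286, 291 and 295 in normoxic shControl libraries. The groups followed the same order as in PSMB6 without overlap. Its hypoxic log2 fold change was -0.54 ± 0.035 (SE) in shRIPOR3 and -0.71 ± 0.036 in shControl cells (edgeR adjusted p = 5.99e-12 and 2.14e-14), and its knockdown log2 fold change was 0.43 ± 0.035 in hypoxia and 0.26 ± 0.036 in normoxia (edgeR adjusted p = 2.26e-10 and 2.32e-06). The interaction of 0.17 ± 0.050 (edgeR adjusted p = 0.0164) became 0.15 without normoxic shRIPOR3 replicate 3 (edgeR adjusted p = 0.0530).

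PSMB3, a beta subunit without protease activity, had the highest knockdown values of the ring at both oxygen levels. It had 59.4, 56.6 and 60.9 CPM in hypoxic shRIPOR3 libraries and 41.9, 41.02 and 40.6 in hypoxic shControl libraries, against 85.9, 84.6 and 84.9 in normoxic shRIPOR3 libraries and 69.7, 69.1 and 68.9 in normoxic shControl libraries. The groups did not overlap, and both knockdown groups lay above their controls. The knockdown log2 fold change was 0.52 ± 0.037 (SE) in hypoxia and 0.30 ± 0.039 in normoxia, or 1.43 and 1.23 times the shControl level (edgeR adjusted p = 1.77e-11 and 9.42e-07). Hypoxia lowered it by -0.53 ± 0.037 in shRIPOR3 and -0.75 ± 0.039 in shControl cells (edgeR adjusted p = 1.92e-11 and 3.72e-14).

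PSMB2, also without protease activity, had 28.7, 26.1 and 31.3 CPM in hypoxic shRIPOR3 libraries and 20.9, 21.2 and 21.8 in hypoxic shControl libraries, against 31.1, 28.8 and 29.6 in normoxic shRIPOR3 libraries and 26.4, 27.2 and 26.5 in normoxic shControl libraries. The hypoxic shRIPOR3 libraries overlapped the normoxic shRIPOR3 libraries, while the hypoxic shControl libraries lay below all others. Its hypoxic log2 fold change was -0.04 ± 0.057 (SE) in shRIPOR3 and -0.32 ± 0.061 in shControl cells (edgeR adjusted p = 0.538 and 5.34e-05). Its knockdown log2 fold change was 0.44 in hypoxia and 0.16 in normoxia (edgeR adjusted p = 2.27e-07 and 0.0427). The normoxic call was lost under 15 of 22 alternatives, among them DESeq2 and each other scaling, with adjusted p up to 0.125. Single libraries whose removal ended it were each normoxic shControl library, normoxic shRIPOR3 replicates 1 and 3 and hypoxic shControl replicates 2 and 3. The interaction was 0.28 ± 0.083 (edgeR adjusted p = 0.0160) and became 0.21 without hypoxic shRIPOR3 replicate 3 (edgeR adjusted p = 0.0589).

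PSMB10 replaces PSMB7 in the immunoproteasome, the form that interferon induces for antigen processing. It had 4.05, 4.26 and 4.50 CPM in hypoxic shRIPOR3 libraries and 4.95, 5.12 and 4.69 in hypoxic shControl libraries, against 4.23, 4.21 and 4.10 in normoxic shRIPOR3 libraries and 4.31, 5.69 and 5.00 in normoxic shControl libraries, and it was the tested beta gene that passed in none of the 5 comparisons. Its log2 fold change in hypoxia was 0.04 ± 0.11 (SE) in shRIPOR3 and 0.00 ± 0.10 in shControl cells (edgeR adjusted p = 0.798 and 0.983). Its knockdown values were -0.20 ± 0.092 in hypoxia and -0.24 ± 0.12 in normoxia (edgeR adjusted p = 0.0595 and 0.104), although shRIPOR3 libraries lay below shControl libraries at each oxygen level. The normoxic value passed at -0.34 without normoxic shControl replicate 1 and at -0.41 after thinning to the smallest library (edgeR adjusted p = 0.0341 and 0.0210). The hypoxic value passed at -0.22 with a filter of at least 1 CPM in 3 libraries (edgeR adjusted p = 0.0417). The other beta genes, PSMB1 and PSMB4, fell in hypoxia in both lines and were higher under knockdown at both oxygen levels, PSMB1 by 0.17 ± 0.040 and 0.14 ± 0.041 and PSMB4 by 0.36 ± 0.042 and 0.18 ± 0.045 in hypoxia and normoxia (SE). For PSMB1 the normoxic knockdown call was lost without normoxic shRIPOR3 replicate 3, at 0.11 (edgeR adjusted p = 0.0533).

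**Figure D3:**
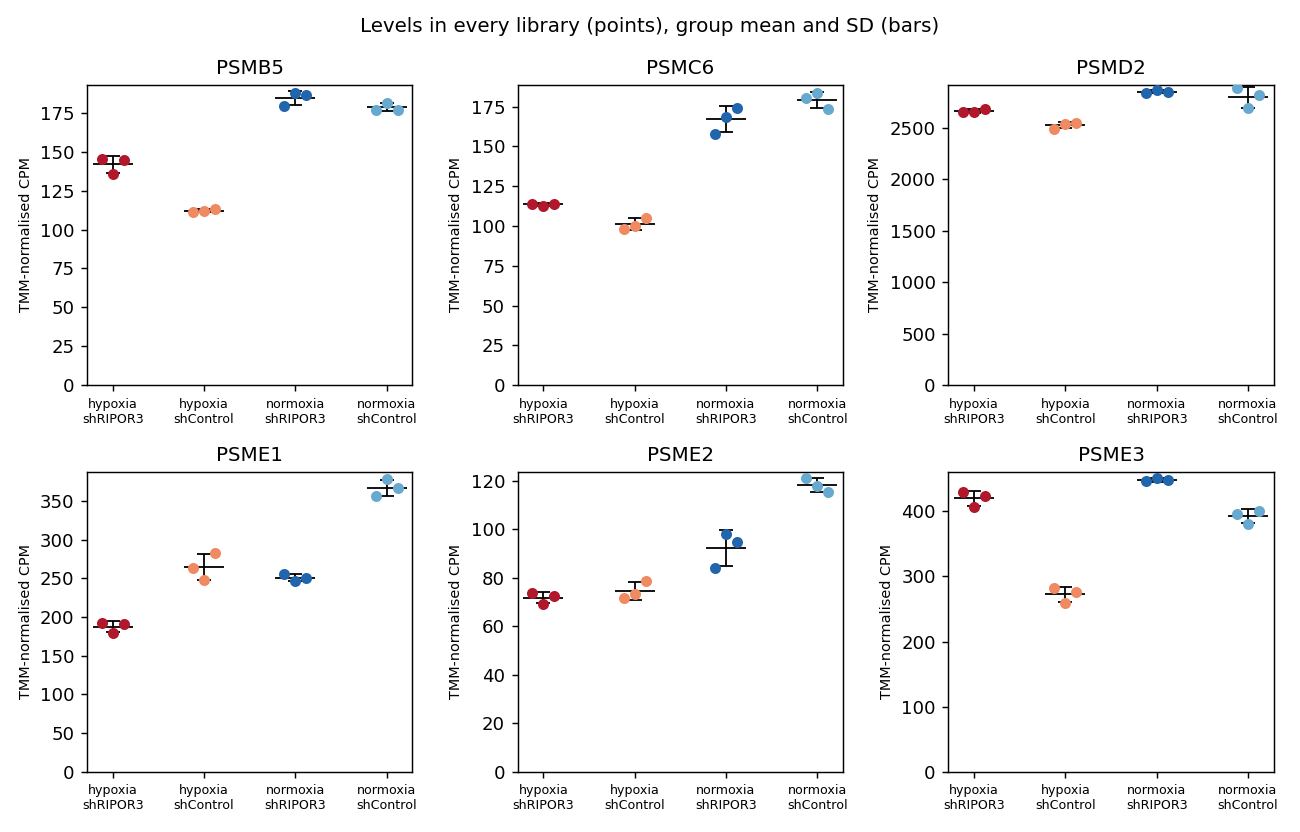
TMM-normalised CPM (y axes, starting at 0) of 6 members in every library (points), with the group mean and SD (bars, n = 3), from left to right hypoxic shRIPOR3, hypoxic shControl, normoxic shRIPOR3 and normoxic shControl. PSMB5, PSMC6 and PSME3 are lowest in hypoxic shControl cells, PSME1 is lower in shRIPOR3 than in shControl cells at both oxygen levels, and PSMD2 moves little.

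All 6 regulatory ATPases fell in hypoxia in both lines, at medians of -0.51 in shRIPOR3 and -0.68 in shControl cells. These subunits form the ring that unfolds substrates and threads them into the core. Knockdown left all 6 higher in hypoxia, at a median of 0.26, but 2 of 6, PSMC2 and PSMC4, higher in normoxia. PSMC2, at 0.10 ± 0.042 (SE), lost the normoxic call under 17 of 22 alternatives, among them DESeq2 and each other scaling, with adjusted p up to 0.205. Single libraries whose removal ended it were normoxic shControl replicates 1 and 2, normoxic shRIPOR3 replicates 1 and 3, hypoxic shRIPOR3 replicate 1 and each hypoxic shControl library. PSMC6, at -0.10 ± 0.040 (SE, edgeR adjusted p = 0.0521), passed as lower in normoxia under 10 of 22 alternatives, DESeq2 included (adjusted p = 0.0395). The interaction was positive in PSMC2, PSMC4, PSMC5 and PSMC6.

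PSMC6 had the lowest hypoxic log2 fold change of any member in shControl cells, within its standard error of that of PSMA5. It had 114, 112 and 114 CPM in hypoxic shRIPOR3 libraries and 98.3, 99.8 and 105 in hypoxic shControl libraries, against 158, 169 and 174 in normoxic shRIPOR3 libraries and 181, 183 and 174 in normoxic shControl libraries. Hypoxic libraries all lay below normoxic libraries, and the knockdown groups were apart in hypoxia and overlapped in normoxia. The hypoxic log2 fold change was -0.56 ± 0.040 (SE) in shRIPOR3 and -0.82 ± 0.040 in shControl cells, or 0.678 and 0.565 times the normoxic level (edgeR adjusted p = 2.42e-11 and 1.09e-14). The interaction was 0.27 ± 0.057 (edgeR adjusted p = 0.00137).

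PSMC4 was the ATPase with the largest knockdown difference. It had 161, 155 and 158 CPM in hypoxic shRIPOR3 libraries and 113, 112 and 117 in hypoxic shControl libraries, against 183, 195 and 195 in normoxic shRIPOR3 libraries and 164, 154 and 169.6 in normoxic shControl libraries. The shRIPOR3 libraries lay above the shControl libraries at each oxygen level, and the hypoxic shControl group was the lowest. Its knockdown log2 fold change was 0.47 ± 0.039 (SE) in hypoxia and 0.23 ± 0.040 in normoxia (edgeR adjusted p = 2.90e-10 and 4.00e-05), and the interaction was 0.23 ± 0.056 (edgeR adjusted p = 0.00392). Of the other ATPases, PSMC1, PSMC2, PSMC3 and PSMC5 ranged from 0.15 to 0.32 for knockdown in hypoxia. Exons of NRDE2 on the opposite strand cover 82.1% of the PSMC1 transcript, so its level is uncertain where counting ignored strand. In addition, 8 pseudogenes named after PSMC1 held 4.98% as many counts as PSMC1, which adds uncertainty whatever the strand setting.

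All 11 non-ATPase subunits of the regulatory particle fell in hypoxia in both lines, at medians of -0.36 in shRIPOR3 and -0.47 in shControl cells. PSMD3 in shRIPOR3 cells, at -0.10 ± 0.039 (SE, edgeR adjusted p = 0.0297), lost its call without hypoxic shControl replicate 2 or 3, hypoxic shRIPOR3 replicate 1 or 2, or normoxic shRIPOR3 replicate 2 or 3, with values from -0.11 to -0.06 and edgeR adjusted p from 0.0539 to 0.197. That call held under 9 of 22 alternatives. Values in shControl cells ran from -0.67 in PSMD6 to -0.15 in PSMD2. Knockdown left 8 higher and 1 lower in hypoxia and 7 higher and 1 lower in normoxia. The normoxic call of PSMD8, at 0.11 (edgeR adjusted p = 0.0387), was lost under 8 of 22 alternatives, with adjusted p up to 0.241. The interaction was positive in 5, namely PSMD1, PSMD3, PSMD6, PSMD8 and PSMD11, and in 8 without hypoxic shControl replicate 3. In hypoxia the knockdown log2 fold changes of PSMD3 and PSMD11 were both 0.42, and PSMD14, the deubiquitinase of the particle, did not pass at either oxygen level (-0.06 ± 0.041 in hypoxia and -0.10 ± 0.042 in normoxia, SE). Its normoxic value (edgeR adjusted p = 0.0526) passed as lower under 11 of 22 alternatives, among them DESeq2 and each other scaling (adjusted p from 0.0305 to 0.0382).

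PSMD2, a scaffold subunit that receives ubiquitin-like domains, was the most abundant member by counts and had the smallest hypoxic change of the non-ATPases in both lines, in shRIPOR3 cells within its standard error of PSMD3. It had 2655, 2660.03 and 2690.2 CPM in hypoxic shRIPOR3 libraries and 2492, 2539 and 2552 in hypoxic shControl libraries, against 2842, 2874 and 2848 in normoxic shRIPOR3 libraries and 2888, 2691 and 2819 in normoxic shControl libraries. The hypoxic libraries lay below the normoxic libraries in each line by a small margin. The log2 fold change was -0.10 ± 0.037 (SE) in shRIPOR3 and -0.15 ± 0.037 in shControl cells (edgeR adjusted p = 0.0272 and 0.00114). The call in shRIPOR3 cells was lost when any of 6 libraries was left out, namely hypoxic shControl replicate 2 or 3, hypoxic shRIPOR3 replicate 1 or 2, or normoxic shRIPOR3 replicate 2 or 3, with values from -0.10 to -0.06 and adjusted p up to 0.205 in edgeR. That call held under 9 of 22 alternatives. With library totals in place of scaling factors PSMD2 stood at 0.02 in shRIPOR3 and -0.04 in shControl cells and passed in neither (edgeR adjusted p = 0.581 and 0.363).

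PSMD1, the large scaffold subunit paired with PSMD2, was the exception under knockdown. It had 144, 140.1 and 146 CPM in hypoxic shRIPOR3 libraries and 156, 159 and 160.2 in hypoxic shControl libraries, against 201, 193 and 200.4 in normoxic shRIPOR3 libraries and 249, 249.6 and 247 in normoxic shControl libraries. The shRIPOR3 libraries lay below the shControl libraries at both oxygen levels, and hypoxic libraries lay below normoxic ones in both lines. The knockdown log2 fold change was -0.15 ± 0.034 (SE) in hypoxia and -0.33 ± 0.035 in normoxia (edgeR adjusted p = 6.30e-04 and 3.66e-08), and the hypoxic change was -0.47 ± 0.034 in shRIPOR3 and -0.65 ± 0.034 in shControl cells (edgeR adjusted p = 4.46e-11 and 4.64e-14).

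The 3 assembly chaperones with PSMD symbols hold ATPases during building of the regulatory particle and leave the finished complex, and they went different ways. PSMD5 had 30.9, 30.4 and 27.9 CPM in hypoxic shRIPOR3 libraries and 22.7, 20.01 and 20.2 in hypoxic shControl libraries, against 38.01, 37.5 and 39.9 in normoxic shRIPOR3 libraries and 33.7, 34.3 and 34.1 in normoxic shControl libraries. Its groups did not overlap, and its knockdown log2 fold change of 0.50 ± 0.053 (SE) in hypoxia compared with 0.18 ± 0.056 in normoxia (edgeR adjusted p = 1.34e-08 and 0.00947). The interaction of 0.32 ± 0.077 (edgeR adjusted p = 0.00397) was the second largest among members, and the normoxic knockdown value was 0.15 without normoxic shRIPOR3 replicate 3 (edgeR adjusted p = 0.0660).

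PSMD10, also known as the oncoprotein gankyrin, had 25.6, 23.9 and 25.5 CPM in hypoxic shRIPOR3 libraries and 31.7, 31.6 and 29.3 in hypoxic shControl libraries, against 31.5, 32.6 and 33.998 in normoxic shRIPOR3 libraries and 39.8, 39.7 and 37.96 in normoxic shControl libraries. The shRIPOR3 libraries lay below the shControl libraries at both oxygen levels, the reverse of PSMD5. Its knockdown log2 fold change was -0.30 ± 0.046 (SE) in hypoxia and -0.25 ± 0.051 in normoxia (edgeR adjusted p = 4.83e-06 and 2.63e-04). Hypoxia lowered it by -0.39 ± 0.049 in shRIPOR3 and -0.34 ± 0.048 in shControl cells, with an interaction of -0.05 ± 0.069 that did not pass (edgeR adjusted p = 0.664). PSMD9 had 8.12, 7.46 and 7.74 CPM in hypoxic shRIPOR3 libraries and 7.75, 6.21 and 7.82 in hypoxic shControl libraries, against 8.92, 8.92 and 9.31 in normoxic shRIPOR3 libraries and 8.43, 7.79 and 8.05 in normoxic shControl libraries, with a hypoxic log2 fold change of -0.22 ± 0.084 (SE) in shRIPOR3 and -0.16 ± 0.089 in shControl cells (edgeR adjusted p = 0.0300 and 0.128). The hypoxic and normoxic shControl libraries overlapped. The call in shRIPOR3 cells was lost without hypoxic shControl replicate 3, hypoxic shRIPOR3 replicate 2 or 3, or normoxic shRIPOR3 replicate 2 or 3. Values were then from -0.23 to -0.18 and edgeR adjusted p from 0.0525 to 0.119. DESeq2 also ended it (adjusted p = 0.0828), as did upper-quartile factors, no low-count filter and thinning (edgeR adjusted p = 0.0614, 0.0728 and 0.135).

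**Figure D4:**
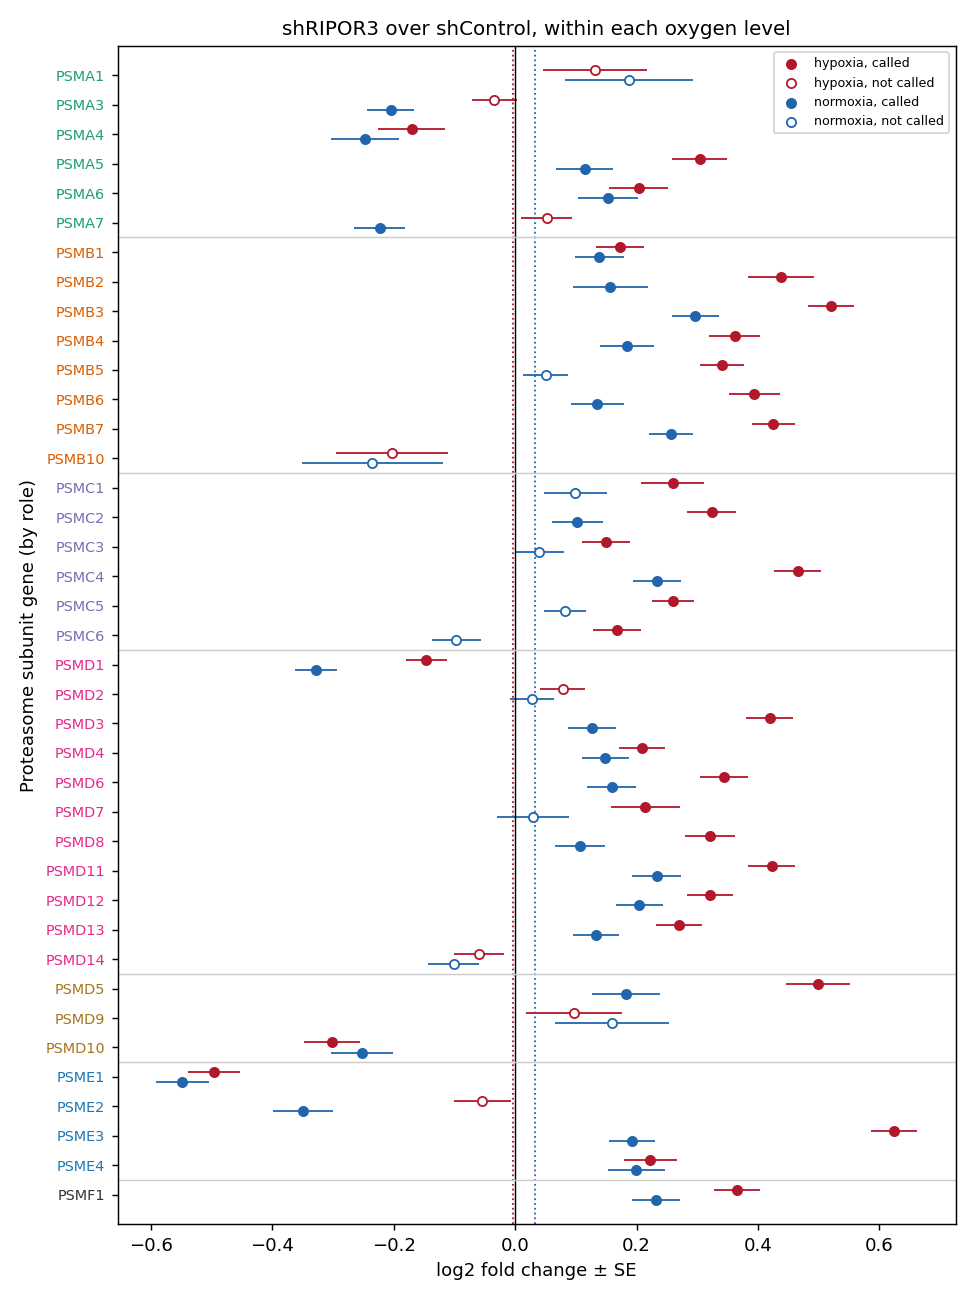
Log2 fold change of shRIPOR3 over shControl (x axis, ± SE) for the 39 tested members, ordered by role, in hypoxia (red, upper point of each pair) and normoxia (blue, lower point). Filled points passed an adjusted p of 0.05, and the dotted lines are the medians of all tested genes. Most members lie right of 0, PSME3 in hypoxia is farthest right at 0.62, and PSME1 is farthest left at both oxygen levels.

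The 4 activators all fell in hypoxia in both lines but parted under knockdown, and with library totals PSME3 and PSME4 did not pass in shRIPOR3 cells. PSME1 and PSME2 form the interferon-inducible 11S cap linked to antigen processing, PSME3 forms a nuclear cap of its own, and PSME4 encodes the large single-chain cap PA200. PSME1 had 192, 179 and 191 CPM in hypoxic shRIPOR3 libraries and 263, 248 and 282 in hypoxic shControl libraries, against 255, 247 and 251 in normoxic shRIPOR3 libraries and 357, 378 and 366 in normoxic shControl libraries. The shRIPOR3 libraries lay below the shControl libraries at each oxygen level, and the normoxic shControl group was highest. Its knockdown log2 fold change was -0.50 ± 0.043 (SE) in hypoxia and -0.55 ± 0.044 in normoxia, or 0.709 and 0.684 times the shControl level (edgeR adjusted p = 4.63e-10 and 3.30e-10). These were the lowest knockdown values of any member at either oxygen level.

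PSME2 had 73.7, 69.2 and 72.5 CPM in hypoxic shRIPOR3 libraries and 71.8, 73.3 and 78.7 in hypoxic shControl libraries, against 83.9, 98.2 and 94.7 in normoxic shRIPOR3 libraries and 121, 118 and 115 in normoxic shControl libraries. The shRIPOR3 libraries lay below the shControl libraries in normoxia and overlapped them in hypoxia. Its knockdown log2 fold change was -0.05 ± 0.047 (SE) in hypoxia and -0.35 ± 0.049 in normoxia (edgeR adjusted p = 0.330 and 2.69e-06), and its interaction was 0.30 ± 0.068 (edgeR adjusted p = 0.00262). PSME1 lies at chr14:24136158-24138967 on the plus strand and PSME2 at chr14:24143362-24147570 on the minus strand (GRCh38, GENCODE 29).

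PSME3 differed from PSME1 and PSME2 in its direction under knockdown. It had 429, 407 and 424 CPM in hypoxic shRIPOR3 libraries and 282, 259.5 and 276 in hypoxic shControl libraries, against 446, 451 and 448 in normoxic shRIPOR3 libraries and 396, 381 and 401 in normoxic shControl libraries. The hypoxic shControl libraries lay below the other 9 libraries. The knockdown log2 fold change was 0.62 ± 0.038 (SE) in hypoxia, the highest of any member, and 0.19 ± 0.039 in normoxia, or 1.54 and 1.14 times the shControl level (edgeR adjusted p = 8.90e-13 and 2.31e-04). The interaction of 0.43 ± 0.054 was also the largest among members (edgeR adjusted p = 3.45e-06).

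Hypoxia lowered PSME3 by -0.53 ± 0.039 (SE) in shControl cells (edgeR adjusted p = 1.72e-11), and in shRIPOR3 cells the value was -0.09 ± 0.038 (edgeR adjusted p = 0.0387). That last call was lost without hypoxic shControl replicate 2 or 3, hypoxic shRIPOR3 replicate 2 or 3, or any of the normoxic shRIPOR3 libraries, with values from -0.10 to -0.05 and edgeR adjusted p from 0.0527 to 0.223, and it turned to 0.03 with library totals (edgeR adjusted p = 0.562). Median-of-ratios and upper-quartile factors also ended it (edgeR adjusted p = 0.0630 and 0.155). PSME4 had 64.1, 60.1 and 59.9 CPM in hypoxic shRIPOR3 libraries and 54.6, 51.5 and 51.7 in hypoxic shControl libraries, against 74.1, 68.3 and 72.1 in normoxic shRIPOR3 libraries and 64.4, 57.9 and 63.3 in normoxic shControl libraries. The knockdown groups were separate at each oxygen level, at log2 fold changes of 0.22 ± 0.044 (SE) in hypoxia and 0.20 ± 0.047 in normoxia (edgeR adjusted p = 1.04e-04 and 0.00122).

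PSMF1, which encodes the proteasome inhibitor PI31, had 141, 139 and 142 CPM in hypoxic shRIPOR3 libraries and 111, 113 and 104 in hypoxic shControl libraries, against 149, 142 and 140.02 in normoxic shRIPOR3 libraries and 120.1, 126 and 121 in normoxic shControl libraries. The shRIPOR3 libraries lay above the shControl libraries at each oxygen level, and the shRIPOR3 groups overlapped between oxygen levels. Knockdown raised it by 0.37 ± 0.037 (SE) in hypoxia and 0.23 ± 0.040 in normoxia on the log2 scale (edgeR adjusted p = 8.78e-09 and 3.39e-05). Its hypoxic values were -0.03 ± 0.038 in shRIPOR3 and -0.16 ± 0.039 in shControl cells (edgeR adjusted p = 0.548 and 8.79e-04), and with library totals the shControl value was -0.05 and did not pass (edgeR adjusted p = 0.295).

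Member by member, 34 genes fell in hypoxia in both lines. PSMB2 and PSMF1 passed in shControl cells alone, PSMD9 in shRIPOR3 cells alone, and PSMA1 and PSMB10 in neither. PSMA1, PSMB10 and PSMD9 averaged under 10 CPM and share exons with another gene on the same strand, so their levels are uncertain. Passing in a single line does not show a difference between lines. The interaction passed in PSMB2 but not in PSMF1 (0.13 ± 0.054, SE) or PSMD9 (-0.06 ± 0.12, SE). PSMF1 passed with median-of-ratios factors, with DESeq2, and without normoxic shRIPOR3 replicate 1 or hypoxic shControl replicate 2, at 0.15 to 0.19 (adjusted p from 0.0184 to 0.0442). Under knockdown 21 members were higher at both oxygen levels, and PSMA4, PSMD1, PSMD10 and PSME1 were lower at both. PSMA3, PSMA7 and PSME2 were called lower in normoxia and not called in hypoxia. A further 6, PSMB5, PSMC1, PSMC3, PSMC5, PSMC6 and PSMD7, were called higher in hypoxia and not in normoxia, and PSMA1, PSMB10, PSMD2, PSMD9 and PSMD14 passed at neither level. Of those 6, the interaction passed in PSMB5, PSMC5 and PSMC6.

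The median interaction was positive in each role group except the assembly chaperones, where it was -0.05. All 21 members that passed had also fallen in hypoxia in shControl cells, so each of them showed a smaller hypoxic decrease, or none that passed, in shRIPOR3 cells. The number passing was 18 to 25 when single libraries were left out, and the call of 7 of the 21 members (PSMA3, PSMA5, PSMB2, PSMB4, PSMB7, PSMD6 and PSMD11) was lost in at least 1 of these runs. PSMD7, which holds the deubiquitinase PSMD14 in place, had 213, 214 and 216 CPM in hypoxic shRIPOR3 libraries, against 160.4, 186 and 209 in hypoxic shControl libraries. Exons of AC009120.2 on the opposite strand cover 50.4% of its principal transcript, so its level is uncertain where counting ignored strand. The hypoxic shControl libraries spread widely, and without hypoxic shControl replicate 3 the PSMD7 interaction was 0.32 (edgeR adjusted p = 8.93e-04), against 0.19 ± 0.082 (SE) with all libraries (edgeR adjusted p = 0.111). Hypoxic shControl libraries enter the hypoxic comparison of that line, the knockdown comparison in hypoxia and the interaction, so these are not separate pieces of evidence.

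**Figure D5:**
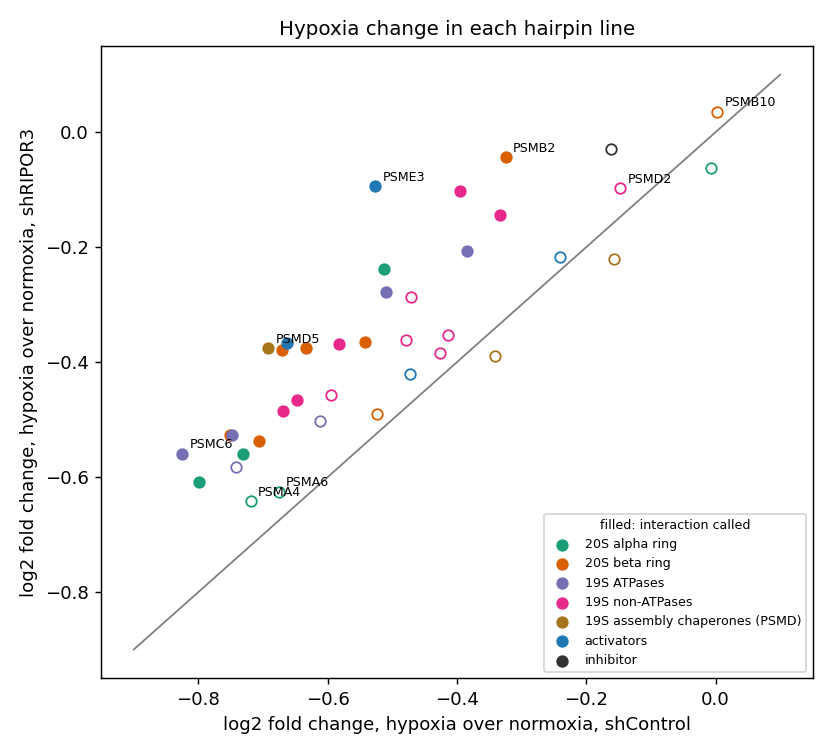
Log2 fold change of hypoxia over normoxia in shRIPOR3 cells (y axis) against that in shControl cells (x axis) for the 39 tested members, coloured by role, with the line of equal change. Filled points are the 21 members whose interaction passed an adjusted p of 0.05, and all of these lie above the line. PSME3 lies farthest from it and PSMA4, PSMA6 and PSMD2 lie near it.

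Partner genes were described from a list of 34 assembly factors, docked enzymes, regulators, shuttles and ubiquitin genes. In hypoxia 10 were higher and 15 lower in shRIPOR3 cells, and 11 were higher and 20 lower in shControl cells. Under knockdown 21 were higher and 7 lower in hypoxia, and 15 were higher and 4 lower in normoxia. The share called was 73.5% and 91.2% in hypoxia in shRIPOR3 and shControl cells and 82.4% and 55.9% under knockdown in hypoxia and normoxia. Of the tested genes of at least 10 CPM, 75.01%, 80.8%, 74.99% and 61.5% were called in these comparisons, in the same order. Of the assembly factors 5 of 7 fell in hypoxia in each line and 6 of 7 were higher under knockdown at each oxygen level. PSMG1, a chaperone of alpha ring assembly, had 49.4, 46.7 and 49.8 CPM in hypoxic shRIPOR3 libraries and 32.4, 29.7 and 35.03 in hypoxic shControl libraries, against 59.9, 61.7 and 65.4 in normoxic shRIPOR3 libraries and 47.5, 51.03 and 50.3 in normoxic shControl libraries, with a knockdown log2 fold change of 0.59 ± 0.050 (SE) in hypoxia and 0.34 ± 0.053 in normoxia (edgeR adjusted p = 3.81e-10 and 1.31e-05).

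UBB, which encodes ubiquitin, had a hypoxic log2 fold change of -0.45 ± 0.039 (SE) in shRIPOR3 and -0.65 ± 0.039 in shControl cells. RPS27A, a ubiquitin and ribosomal protein fusion, had -0.73 ± 0.056 and -0.69 ± 0.056 (SE) in shRIPOR3 and shControl cells. TXNL1, a thioredoxin-like protein that docks on the regulatory particle, fell by a log2 fold change of -0.28 ± 0.038 in shRIPOR3 and -0.51 ± 0.039 in shControl cells (edgeR adjusted p = 1.04e-06 and 4.00e-11).

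Transcription factors of proteasome genes and the enzymes that process them made up 7 of the partners. Of these 5 rose and 1 fell in hypoxia in shRIPOR3 cells, where 25.2% of all tested genes were called higher, and 6 rose and 1 fell in shControl cells, where 32.4% were called higher. Under knockdown in hypoxia 1 was higher and 6 were lower, where 30.7% of all tested genes were called higher and 31.2% lower. NFE2L1, the factor that raises subunit genes when the proteasome is inhibited, had 601, 603 and 596 CPM in hypoxic shRIPOR3 libraries and 626, 639 and 660.2 in hypoxic shControl libraries, against 402, 438 and 436 in normoxic shRIPOR3 libraries and 418, 406 and 418 in normoxic shControl libraries. The hypoxic libraries all lay above the normoxic ones, with log2 fold changes of 0.50 ± 0.039 (SE) in shRIPOR3 and 0.63 ± 0.039 in shControl cells (edgeR adjusted p = 1.07e-10 and 6.36e-13). In hypoxia knockdown lowered it by -0.10 ± 0.038 (edgeR adjusted p = 0.0310), and the interaction of -0.14 ± 0.054 did not pass (edgeR adjusted p = 0.0757). The alternatives were compared for members only, so whether this NFE2L1 call holds under them was not tested.

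Of the small MAF proteins, which pair with NFE2L1 and NFE2L2 on DNA, the interaction was negative in MAFF and MAFK and did not pass in MAFG (-0.12 ± 0.059, SE, edgeR adjusted p = 0.173). MAFF had 95.5, 92.8 and 98.9 CPM in hypoxic shRIPOR3 libraries and 164, 158 and 169 in hypoxic shControl libraries, against 82.3, 86.8 and 84.4 in normoxic shRIPOR3 libraries and 99.97, 86.8 and 95.98 in normoxic shControl libraries. The hypoxic shControl libraries lay above all others. Its hypoxic log2 fold change was 0.18 ± 0.045 (SE) in shRIPOR3 and 0.79 ± 0.045 in shControl cells, with an interaction of -0.61 ± 0.064 (edgeR adjusted p = 2.91e-07). MAFK had 11.3, 12.6 and 12.6 CPM in hypoxic shRIPOR3 libraries and 19.8, 18.8 and 21.7 in hypoxic shControl libraries, against 7.87, 8.88 and 9.17 in normoxic shRIPOR3 libraries and 8.59, 9.12 and 8.88 in normoxic shControl libraries, and its interaction was -0.72 ± 0.11 (SE, edgeR adjusted p = 4.58e-05). NFE2L1 acts mainly through processing of its protein, which mRNA counts do not measure.

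Promoter letters were searched because the members moved largely together. RefSeq windows of 300 bases, from 250 before to 50 after the transcript start (GRCh38.p14), matched 36 of the 41 members, all but PSMA7, PSMB1, PSMB6, PSMB7 and PSMD4. Motifs were chosen with the values known and searched on both strands, and a match is a description of the letters alone. The antioxidant response element core TGACNNNGC, which NFE2L1 and NFE2L2 bind with small MAF proteins, was present in windows of 12 members, 33.3%, against 16.1% of 27305 genes. The ETS core CCGGAA was present in 20 members, 55.6% against 20.1%, and the box CCAAT in 18 of the 36, against 39.7% of genes. The HIF core ACGTG was present in 8 members, 22.2% against 24.9% of genes, and the interferon-stimulated response element core, GAAA repeated after a gap of any 2 bases, in 5, 13.9% against 4.38%. The 27305 genes were all those with a window, whatever their level in these cells. A gene counted if any of its windows matched. Whether expressed genes in general carry these letters as often as the members was not tested.

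Members with the antioxidant core did not all behave alike. Stretches of 4 windows are shown with the core in capitals, from members that knockdown left higher (PSMB3, PSMD3 and PSMD12) and from PSMA4, which was lower. They lie at chr17:38752582-38752700, plus strand, chr17:39980715-39980824, plus strand, chr17:67366679-67366797, minus strand and chr15:78540605-78540723, plus strand (GRCh38.p14, RefSeq).
PSMB3: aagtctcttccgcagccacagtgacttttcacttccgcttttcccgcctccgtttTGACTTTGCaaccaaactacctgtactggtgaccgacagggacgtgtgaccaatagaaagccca
PSMD3: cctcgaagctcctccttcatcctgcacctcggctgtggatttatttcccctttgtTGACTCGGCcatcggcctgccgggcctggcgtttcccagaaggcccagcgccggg
PSMD12: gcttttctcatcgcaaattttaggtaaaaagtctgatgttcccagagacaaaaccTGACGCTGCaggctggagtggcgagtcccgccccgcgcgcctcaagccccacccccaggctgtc
PSMA4: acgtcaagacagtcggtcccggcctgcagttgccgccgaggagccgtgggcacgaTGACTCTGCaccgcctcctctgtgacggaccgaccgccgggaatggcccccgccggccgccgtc
Among the 12 members with the core, 7 were higher and 3 lower under knockdown in hypoxia, at a median log2 fold change of 0.24. Among the 22 tested members whose window lacked it, 16 were higher and 1 lower, at a median of 0.26. In hypoxia the members with the core had a median of -0.36 in shRIPOR3 and -0.49 in shControl cells, and those without it had -0.38 and -0.56. PSMD12, a scaffold subunit, was higher under knockdown by 0.32 ± 0.038 in hypoxia and 0.20 ± 0.039 in normoxia (SE), and PSMD3, also a scaffold subunit, by 0.42 ± 0.039 and 0.13 ± 0.040. For PSMD3 the normoxic knockdown call was lost without normoxic shControl replicate 2, at 0.08 (edgeR adjusted p = 0.0865).

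The interferon-stimulated core was present in windows of PSMA4, PSMB4, PSMB10, PSME1 and PSME2. It is shown in capitals for the antigen-processing members PSME1, PSME2 and PSMB10, whose shRIPOR3 values lay below shControl values in normoxia. In PSME1 the letters are the reverse complement of the core. The stretches lie at chr14:24136144-24136211, plus strand, chr14:24146593-24146693, minus strand and chr16:67936833-67936926, minus strand (GRCh38.p14, RefSeq).
PSME1: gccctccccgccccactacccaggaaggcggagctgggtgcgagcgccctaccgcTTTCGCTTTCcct
PSME2: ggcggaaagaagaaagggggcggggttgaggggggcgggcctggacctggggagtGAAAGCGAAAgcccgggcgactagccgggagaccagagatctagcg
PSMB10: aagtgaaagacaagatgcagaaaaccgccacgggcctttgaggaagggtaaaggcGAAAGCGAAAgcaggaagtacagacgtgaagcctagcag
Under knockdown in normoxia these 3 genes had log2 fold changes of -0.55 ± 0.044, -0.35 ± 0.049 and -0.24 ± 0.12 (SE), the last of which did not pass. The remaining carriers of the core split, with PSMA4 at -0.25 ± 0.056 and PSMB4 at 0.18 ± 0.045.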

How the data were processed

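RNA sequencing covered 12 libraries of MDA-MB-231, with 3 in each of 4 groups of hairpin and oxygen. The authors deposited 1 table of raw read counts per gene symbol, and whole numbers with differing totals fitted that unit. The tools were fastp 0.23.4, STAR 2.5.3a and featureCounts with build GRCh38, per the submitters' processing notes, which give no role or order. Not given in the sources used here were annotation, strand setting and duplicate handling, so reads of overlapping or antisense genes cannot be told apart. The kit was stranded, per the labels' protocols.

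A model of all 12 libraries, with a mean per group, was fitted to the counts with edgeR 4.0.16 in R 4.3.3. A filter by filterByExpr (minimum count 10) kept 15648 of 24641 symbols. TMM factors ran from 0.951 to 1.05, and the biological coefficient of variation was 3.75%. Quasi-likelihood F-tests were adjusted by Benjamini and Hochberg over all tested genes, at a threshold of 0.05. Levels are TMM-normalised CPM. The SE of a log2 fold change came from the model of all 12 libraries, and each SD covers the 3 libraries of a group. Deeper hypoxic libraries gave more counts per gene.

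Members and lists were chosen with earlier results of these data known. Values per library were given for the 3 highest and 3 lowest members of each comparison, the catalytic subunits, PSMB10, the activators, PSMF1 and NFE2L1. PSMD7, PSMG1, MAFF and MAFK were added, PSMD7 after its values were seen and the others as partners of smallest p. A gene of the partner list is not reported here. Coordinates and transcript lengths came from GENCODE 29 and promoters from RefSeq. The pipeline was tested on simulated data. Alternatives were DESeq2 1.42.0, other filters and scalings, a replicate block, the compared groups alone, thinning to the smallest library, single libraries left out and a threshold of 0.01. Python 3.11.15, NumPy 2.4.6, pandas 2.3.3 and matplotlib 3.10.9 served for tables and figures.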

Additional observations from a re-analysis of the deposited data

Results flagged for a closer look

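The hypoxic change differed between the shRIPOR3 and shControl lines in 21 members by the interaction test in edgeR (adjusted p below 0.05), always with a positive log2 difference. In the beta ring the differences were 0.29 for PSMB5, 0.28 for PSMB2, 0.26 for PSMB6, 0.22 for PSMB3, 0.18 for PSMB4 and 0.17 for PSMB7. In the alpha ring they were 0.27 for PSMA7, 0.19 for PSMA5 and 0.17 for PSMA3. Among the regulatory ATPases they were 0.27 for PSMC6, 0.23 for PSMC4, 0.22 for PSMC2 and 0.18 for PSMC5. Among the regulatory non-ATPases they were 0.29 for PSMD3, 0.21 for PSMD8, 0.19 for PSMD11, 0.19 for PSMD6 and 0.18 for PSMD1. The assembly chaperone PSMD5 differed by 0.32, and the activators PSME3 and PSME2 differed by 0.43 and 0.30. The interaction called 23.2% of all tested genes and 35.4% of those of at least 10 CPM, so a call alone does not set a member apart.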

How the results depend on the processing

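Of 4251 member values recomputed over 22 alternatives, 4002 kept their direction and side of the threshold, 41 changed sign without a call in either setting, 159 no longer passed, 46 passed newly and 3 called values changed sign. The 3 were hypoxia in shRIPOR3 cells with library totals in place of scaling factors, at 0.024 for PSMD2, 0.020 for PSMD3 and 0.027 for PSME3, where none passed (edgeR adjusted p = 0.581, 0.685 and 0.562). Those totals moved the median of all tested genes by 0.12 in shRIPOR3 and 0.11 in shControl cells and the share of higher calls to 63.4% against 45.3% and 61.6% against 50.03%. The members lowered by hypoxia were then 29 and 34, and 35 and 36 with TMM factors, and PSMD11, PSMD9 and PSME4 also lost their call in shRIPOR3 cells and PSMD2 and PSMF1 theirs in shControl cells.

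No count over all members moved by over 1.5 times, while some counts within a role did, as given beside them. When each library was left out, hypoxia lowered 31 to 35 members in shRIPOR3 and 36 in shControl cells, knockdown left 27 to 29 higher and 3 to 4 lower in hypoxia and 15 to 21 higher and 7 to 9 lower in normoxia, and the interaction was positive in 18 to 25. Thinning to the smallest library left 16 positive interactions and a threshold of 0.01 left 14. Apart from that threshold, calls held under all alternatives run for 29 of 35 and 34 of 36 members lowered by hypoxia, 27 of 27 higher under knockdown in hypoxia, 12 of 21 in normoxia and 13 of 21 interactions. Median-of-ratios factors put 54.3% of interaction calls above 0, against 47.0%.

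Libraries with the same replicate number showed no shared deviation from their group means over all tested genes (r from -0.019 to 0.025 over 18 pairs). This does not show whether they were cultured or prepared together. With the replicate block 35 and 36 members were lowered by hypoxia, 27 were higher under knockdown in hypoxia, 20 in normoxia and 21 had a positive interaction, and 1 of 195 member values lost its call. PSMA2 and PSMB11 had too few counts to be tested. DESeq2 called 23 positive interactions.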
